A study of Homo sapiens with 4 samples.

Results

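The 57 hairpins described here were the human microRNA (miRNA) precursors for which the array carried both a -5p and a -3p miRNA of the same base name, 114 arms among 851 human miRNAs. Names with a number above the limit of the rule were not taken, and 12 bases were left out, namely miR-34c, miR-125a, miR-483, miR-885 and 8 bases of the 14q32 cluster. The rule used names only and no measured value, although it was set with earlier results of these data known. The cells were HepG2, a hepatoma line of human origin long in laboratory use, grown without genetic modification. They received either berberine chloride, a plant alkaloid, at 40 µM from a stock in dimethyl sulfoxide (DMSO), or 0.08% DMSO alone as the control. Cells were sampled for total RNA at 2 h and at 4 h, and 1 single-dye Agilent miRNA array was run per condition, 4 in all, so there was no replicate of any condition. The question here was which arm of each hairpin gave the stronger signal, and whether the ratio of the arms differed with berberine.

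A miRNA precursor folds into a hairpin, and Dicer cuts it into a short duplex with one strand from the 5′ side and one from the 3′ side. One strand is usually loaded into an Argonaute protein as the guide while the other is degraded, and the choice is known to depend on the stability of the duplex ends and on the first base. Both arms of a hairpin come from the same transcript, but their seeds, the bases that pair with target mRNAs, differ, so the arms regulate different targets. In the older naming an asterisk marked the minor arm, and the -5p and -3p endings were given where the minor arm was not clear from the data then at hand.

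Of the 114 arms, 94 had a mature sequence in the RefSeq table of GRCh38.p14, the build of all coordinates below. Of the sequences below, the first group is of hairpins with a marked difference between the arms, the next of hairpins with arms of similar signal, and the last of Xp11 hairpins whose arm ratio depended on which probes were summed. Each is written 5′ to 3′, with the seed (bases 2 to 8) in capitals.

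The arms of miR-455 lie at chr9:114209449-114209507 on the plus strand, within the interval of COL27A1, a collagen gene.
miR-455-5p: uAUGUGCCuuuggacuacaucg
miR-455-3p: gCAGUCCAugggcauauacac
The arms of miR-361 lie at chrX:85903641-85903702 on the minus strand, within CHM.
miR-361-5p: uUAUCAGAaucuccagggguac
miR-361-3p: uCCCCCAGgugugauucugauuu
The arms of miR-331 lie at chr12:95308445-95308500 on the plus strand.
miR-331-5p: cUAGGUAUggucccagggaucc
miR-331-3p: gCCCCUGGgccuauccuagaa
The arms of miR-590 lie at chr7:74191213-74191273 on the plus strand, within EIF4H, a translation initiation factor gene.
miR-590-5p: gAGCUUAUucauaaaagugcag
miR-590-3p: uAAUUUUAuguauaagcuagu

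The arms of miR-324 lie at chr17:7223308-7223364 on the minus strand, within the interval of ACADVL.
miR-324-5p: cGCAUCCCcuagggcauuggug
miR-324-3p: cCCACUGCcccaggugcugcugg
The arms of miR-362 lie at chrX:50008968-50009026 on the plus strand, within CLCN5, a chloride channel gene that holds the Xp11 cluster.
miR-362-5p: aAUCCUUGgaaccuaggugugagu
miR-362-3p: aACACACCuauucaaggauuca

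The arms of miR-501 (chrX:50009735-50009793), miR-502 (chrX:50014613-50014670) and miR-532 (chrX:50003167-50003225) lie in the same gene and on the same strand.
miR-501-5p: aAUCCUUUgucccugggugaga
miR-501-3p: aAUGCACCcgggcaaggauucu
miR-502-5p: aUCCUUGCuaucugggugcua
miR-502-3p: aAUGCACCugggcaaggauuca
miR-532-5p: cAUGCCUUgaguguaggaccgu
miR-532-3p: cCUCCCACacccaaggcuugca
The 3p arms of miR-501 and miR-502 share the seed AUGCACC and differ by 2 edits over their whole length, and both are within 3 edits of miR-500a-3p, so the arrays may not tell their RNAs apart. The seed AGCUUAU of miR-590-5p is also that of miR-21-5p.

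The signal of a miRNA was the total signal intensity of the scanner software, the background-subtracted signal summed over those probes of the miRNA that exceeded 3 times their own error. A miRNA with no such probe was called not detected. The arm ratio was log2 of the 3p signal over the 5p signal on one array, with the error propagated from the software's signal errors. Brightness also depends on how well each probe hybridises, so the stronger signal of an arm is not a measure of its molar excess. This property of the probes and the overall brightness of an array both cancel when the arm ratio of one array is set against that of another, provided the same probes were summed. An arm was called brighter where the 95% measurement range of the arm ratio, taken from this error, left out 0. Such a range says nothing of the spread between cultures.

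The arrays held 15739 features each, and no spot of a human miRNA was saturated. Of the human miRNAs, 197 were detected on all 4 arrays. The 75th percentile of their signals, a measure of the brightness of an array, was 243 for the control and 169 for berberine at 2 h, and 225 and 297 at 4 h. The berberine array was thus the dimmest at 2 h and the brightest at 4 h. The 4 hepatocyte markers, miR-122, miR-192, miR-194 and miR-148a, were detected on all arrays, although miR-122, the miRNA typical of normal liver, was dim at 22.4 to 39.9. Of 15 markers of other cell types, 2 were detected on all 4 arrays and 11 on none. The 2 were listed as stromal, namely miR-145, at 19.7 to 42.3, and the hairpin arm miR-199a-3p, at 13.4 to 28.5. The signal of miR-145 was thus similar to that of miR-122.

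At least 1 arm was detected for 26 of the 57 hairpins, and no arm of the other 31 was detected on any array. Both arms were detected on all 4 arrays for 9 hairpins, which were miR-140, miR-151, miR-324, miR-361, miR-362, miR-455, miR-501, miR-532 and miR-574. In 2 more, miR-423 and miR-502, both arms were detected except on the berberine array at 2 h, where miR-423-3p and miR-502-5p were not detected. In 10 hairpins one arm was detected on all 4 arrays and the other on none, and in the remaining 5 one arm was detected on some arrays and the other on none. At 2 h 36 arms were detected in the control and 30 with berberine, and at 4 h 32 and 37. Of all 851 human miRNAs, 235 were detected on the control array at 2 h and 226 on that at 4 h. With berberine 242 were detected at 4 h, and fewer at 2 h than on any other array. The counts of arms and of all human miRNAs thus both followed the brightness of the arrays, with the fewest on the dimmest array and the most on the brightest.

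Hairpins of the same genomic cluster were detected together or not at all in most clusters. All 5 hairpins of the Xp11 cluster, which spans 11504 bases, had a detected arm, and 4 of them had both. None of the 2 Xq26 hairpins, the 3 Xq27 hairpins or the 7 hairpins of the chromosome 19 and miR-371 clusters, which are known for expression in placenta and stem cells, had a detected arm. The miR-548 family, which derives from transposable elements, had a detected arm in 2 of 4 hairpins. Among 20 hairpins listed as lying singly, most of them in host genes, 13 had a detected arm and 6 had both, of which miR-423 had both on only some of the arrays. Of the 16 hairpins outside these lists, 6 had a detected arm, and miR-151 was the one with both.

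The same arm was brighter on all 4 arrays in 15 hairpins. It was the 5p arm in 10 of them, miR-28, miR-140, miR-146b, miR-151, miR-361, miR-423, miR-532, miR-574, miR-582 and miR-590, and the 3p arm in the other 5, miR-193a, miR-199a, miR-331, miR-338 and miR-455. In no hairpin was the 3p arm brighter on one array and the 5p arm on another. By array, the 5p arm was brighter in 13 hairpins and the 3p arm in 6 on the control array at 2 h, in 10 and 5 on the berberine array at 2 h, in 10 and 5 on the control array at 4 h, and in 14 and 6 on the berberine array at 4 h. Neither arm was called brighter in 6 hairpins on each array. Where the same probes of a miRNA were summed on every array (equal probe sums), the 15 hairpins became 17, with miR-501 and miR-769 added to those with a brighter 5p arm.

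**Figure D1:**
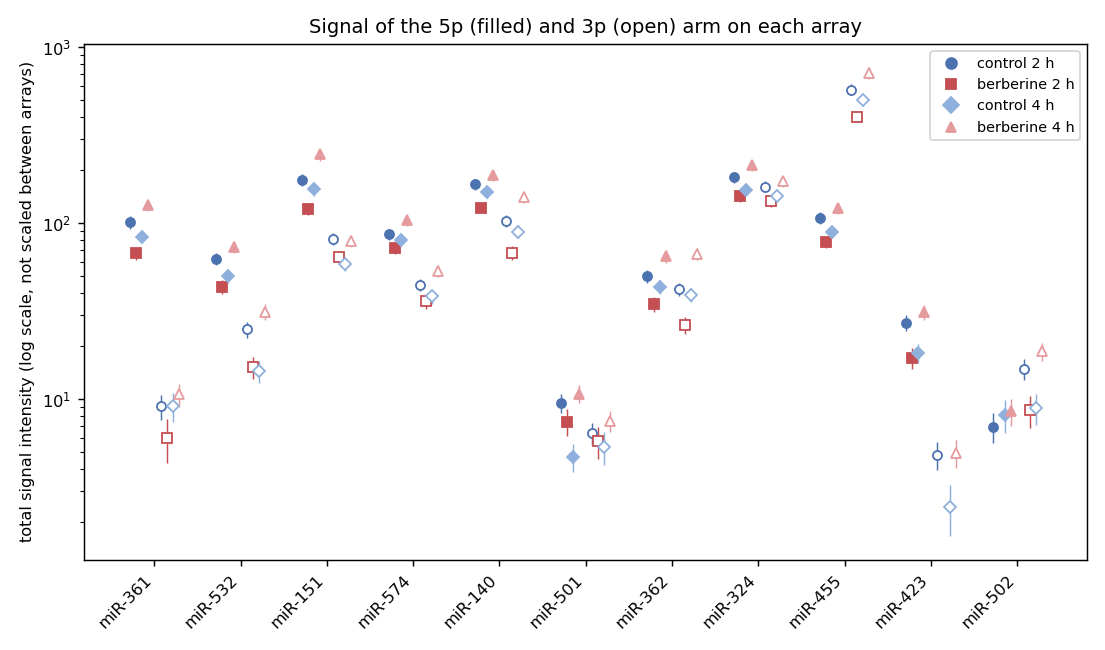
Total signal intensity (log axis, not scaled between arrays) of the 5p arm (filled) and the 3p arm (open) of the 11 hairpins with both arms detected, with 1 symbol per array and bars of 1 measurement error. The 3p arm of miR-455, at 401 to 711, was the brightest arm shown, and miR-361, miR-532, miR-151, miR-574, miR-140 and miR-423 had the 5p arm above the 3p arm on every array that detected both.

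miR-455 was the hairpin with the strongest lead of the 3p arm among those with both arms measured. miR-455-3p, which has been studied mainly in cartilage, had signals of 572 in the control and 401 with berberine at 2 h, and of 500.1 and 711 at 4 h. The 5p arm had 107 and 77.7 at 2 h and 89.1 and 121 at 4 h. The 3p arm was thus above the 5p arm on every array, by 5.36-fold (control) and 5.16-fold (berberine) at 2 h, by 5.61-fold and 5.88-fold at 4 h, and the log2 arm ratio stayed between 2.37 and 2.56.

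miR-361 was the hairpin with the strongest lead of the 5p arm among those with both arms measured. miR-361-5p, a miRNA known to target VEGFA, had signals of 101 and 67.4 at 2 h and of 83.4 and 126.98 at 4 h in control and berberine. Its 3p arm had 9.06 and 6.004 at 2 h and 9.10 and 10.6 at 4 h, close to the floor of detection. The 5p arm was 9.16-fold to 12.0-fold brighter on the 4 arrays, with a mean log2 arm ratio of -3.44. In miR-423, whose 3p arm was dimmer still at 2.44 to 4.94 where detected, the log2 arm ratio was -2.50 on the control array at 2 h, -2.90 on the control array at 4 h and -2.65 with berberine at 4 h.

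miR-532, miR-151 and miR-574 had a lead of the 5p arm of lesser size. The 5p arm of miR-532 was 2.34-fold to 3.47-fold brighter, with 62.2 and 43.1 at 2 h and 49.8 and 73.2 at 4 h against 24.8 and 15.2, and 14.3 and 31.2, for the 3p arm. The 5p arm of miR-151 was 1.87-fold to 3.09-fold brighter, with 176 and 120.2 at 2 h and 155 and 245 at 4 h, while the 3p arm had 81.1 and 64.3, and 57.9 and 79.1. miR-574 had the steadiest ratio, 1.93-fold to 2.11-fold in favour of the 5p arm, with a range of 0.12 on the log2 scale over the 4 arrays. Its 5p arm had 86.3 and 72.1 at 2 h and 80.3 and 103 at 4 h, and its 3p arm 44.6 and 35.7, and 38.1 and 53.5.

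miR-140, whose host gene is WWP2 and which is abundant in cartilage, had a small lead of the 5p arm. miR-140-5p had signals of 166 and 122 at 2 h and of 149 and 187 at 4 h, and miR-140-3p had 103 and 67.5 at 2 h and 89.1 and 141 at 4 h. The 5p arm was 1.33-fold to 1.81-fold brighter and the log2 arm ratio ran from -0.85 to -0.41. The order depended on the summary of the probes, since the brightest probe of each arm gave a log2 arm ratio of -0.33 to 0.07.

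In miR-324 and miR-362 the arms were of similar signal. miR-324-5p, known as a repressor of Hedgehog signalling, had 181 and 141 at 2 h and 154 and 212 at 4 h, and miR-324-3p had 160.3 and 132 at 2 h and 142 and 172 at 4 h. The 5p arm was called brighter only on the berberine array at 4 h, by 1.23-fold. miR-362-5p had 49.7 and 34.4 at 2 h and 43.2 and 64.5 at 4 h, and miR-362-3p had 42.1 and 26.3, and 38.9 and 66.7. Neither arm of miR-362 was called brighter on any array, and its log2 arm ratio, from -0.39 to 0.05, was above 0 on the berberine array at 4 h and below 0 on the other arrays. In miR-501 the 5p arm was called brighter on the control array at 2 h, by 1.48-fold, and on the berberine array at 4 h, by 1.43-fold, and neither arm on the other arrays.

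**Figure D2:**
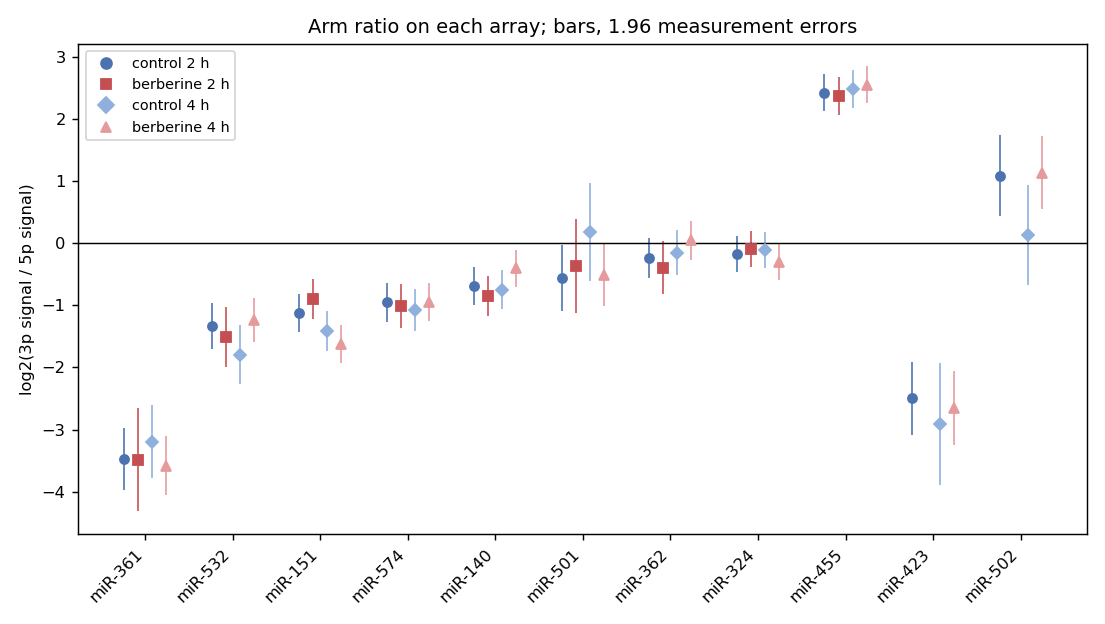
Arm ratio, log2 of the 3p signal over the 5p signal, of the 11 hairpins with both arms detected, by array, with bars of the 95% measurement range. miR-455 lay between 2.37 and 2.56 and miR-361 between -3.58 and -3.20, whereas miR-362, at -0.39 to 0.05, and miR-324, at -0.30 to -0.10, lay nearest to 0.

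For the hairpins with one arm detected on all arrays and the other on none, the ratio is a bound. The detected signal was divided by the higher of the lowest detected signal of that array and 3 times the error of the undetected arm's probes. miR-331-3p had 160.0 and 111 at 2 h and 140 and 197 at 4 h, at least 23.5-fold to 55.5-fold above its 5p arm. miR-338-3p, encoded within AATK, had 118 and 80.5, and 107 and 140, at least 17.0-fold to 39.5-fold. These were the 2 hairpins with the widest bounds.

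Among the 5p arms, miR-146b-5p, a miRNA induced by NF-κB, had 91.9 and 60.3 at 2 h and 82.5 and 117 at 4 h, at least 12.8-fold to 33.1-fold above its 3p arm. miR-590-5p had 83.1 and 55.0 at 2 h and 63.4 and 93.1 at 4 h, at least 11.6-fold to 26.2-fold. The bounds were at least 7.41-fold to 19.01-fold for miR-28 and at least 4.60-fold to 12.4-fold for miR-582. miR-146b-5p is within 3 edits of miR-146a-5p, so its signal may hold RNA of both.

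The remaining bounds were small because the detected arm was dim. miR-193a-3p had 25.0 and 14.4 at 2 h and 15.5 and 30.3 at 4 h, at least 2.15-fold to 6.02-fold above its 5p arm. miR-199a-3p had 20.09 and 13.4, and 20.05 and 28.5, at least 1.99-fold to 5.66-fold, and its sequence is identical to that of miR-199b-3p. miR-769-5p had 12.2 and 5.02 at 2 h and 6.74 and 13.4 at 4 h, with bounds of at least 1.06-fold to 3.76-fold, and was not called brighter on every array. For miR-548d, with signals of 2.27 to 3.13 for the 5p arm, no bound could be given. In the 9 hairpins with a bound, the lowest was on the berberine array at 2 h, the dimmest array.

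**Figure D3:**
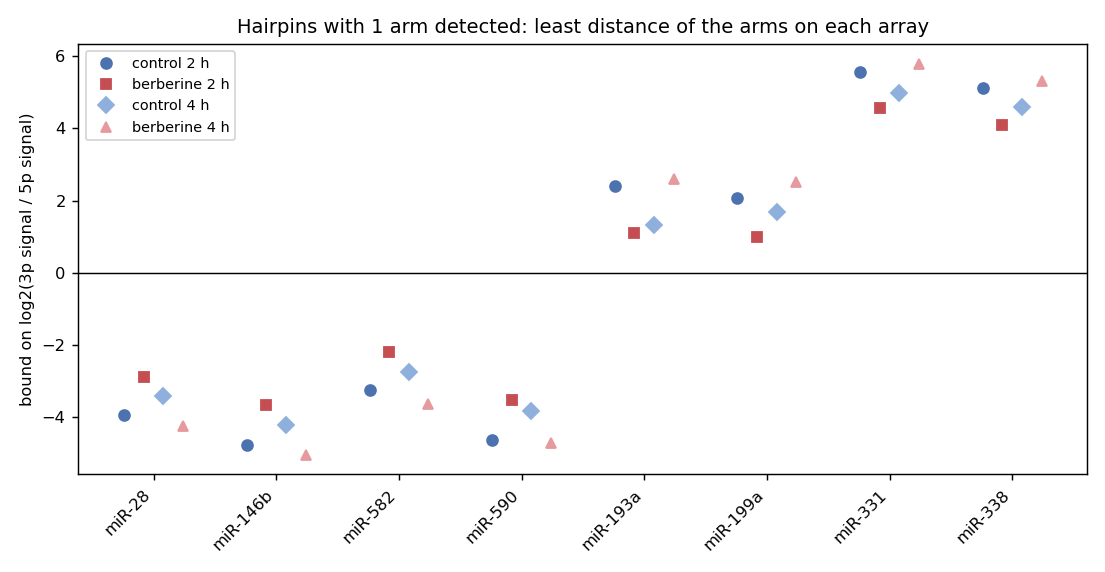
Bound on the log2 ratio of the 3p over the 5p signal, by array, in the 8 hairpins with one arm detected on all 4 arrays, the other on none, and the detected arm called brighter on each. Values below 0 are hairpins with the 5p arm detected and values above 0 those with the 3p arm, and the bounds of an array follow its brightness, with berberine at 2 h nearest to 0 and berberine at 4 h farthest.

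The sequences of both arms were set side by side in 13 of the 15 hairpins with the same arm brighter on all 4 arrays. The brighter arm had the lower GC content in 10 of the 13 and the higher in 3, with a median of 45.5% against 57.1%. The 3 exceptions were miR-331, miR-455 and miR-590. The first base was A or U in 8 of the brighter and in 8 of the dimmer arms. In the first 4 bases the brighter arm had more A and U in 6 hairpins, as many in 3 and fewer in 4. These are counts over a few hairpins with no test, and GC content also bears on hybridisation.

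The arms were also set beside those of other hairpins on the array. The median size of the mean log2 arm ratio was 1.00 in the 9 hairpins with both arms on all 4 arrays, a 2.00-fold difference, with a range of 0.17 to 3.44. In 13 other hairpins measured the same way, most of them pairs of a plain name and a name with an asterisk, it was 4.30, a 19.6-fold difference, with a range of 1.57 to 7.76. The 9 leave out the hairpins of the rule with one arm undetected, whose lowest bounds ran up to 23.5-fold in miR-331. The median of 1.00 therefore does not describe all hairpins of the rule. Of these 13, the asterisk arm was the dimmer one on all 4 arrays in 11 of 11 pairs with an asterisk name. The pair of miR-500, not detected in both arms on every array, went the other way. Its log2 ratio of asterisk over plain arm was 2.34 on the control array at 2 h. At 4 h it was 2.40 on the control array and 2.52 with berberine. The comparison is a description with no test, and the older naming itself rests on which arm was the minor one.

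Berberine was then compared with the control at each time through the change of the arm ratio. At 2 h the change could be computed in 9 hairpins and lay between -0.18 in miR-532 and 0.22 in miR-151. None of the 9 was past 2-fold, against 9.09% of all 22 hairpins of the array with both arms detected on both arrays, and the 95% measurement range of the change took in 0 in each. The median change was -0.05, with 3 hairpins above 0 and 6 below. The next highest changes were 0.20 (error 0.47) in miR-501 and 0.08 (error 0.21) in miR-324, and the next lowest were -0.16 (error 0.23) in miR-140 and -0.15 (error 0.27) in miR-362.

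At 4 h the change could be computed in 11 hairpins and lay between -0.70 in miR-501 and 1.01 in miR-502, with a median of 0.12. The ratio of miR-502 was past 2-fold, against 8.82% of all 34 hairpins at this time, and was also the one change whose 95% measurement range left out 0. It was 0.13 on the control array and 1.14 with berberine, a 2.01-fold change with an error of 0.51 on the log2 scale. The next highest changes were 0.57 (error 0.30) in miR-532 and 0.34 (error 0.22) in miR-140. After miR-501 the lowest were -0.39 (error 0.39) in miR-361 and -0.21 (error 0.23) in miR-151.

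The control arrays at 4 h and 2 h also differed from each other. Over the same 11 hairpins the change ran from -0.96 in miR-502 to 0.75 in miR-501, none past 2-fold, against 5.88% of 34 hairpins. In the 9 hairpins with both arms on all arrays the median size of the change was 0.15 for berberine at 2 h, 0.21 for berberine at 4 h and 0.12 between the controls. Time in culture and array cannot be told apart in the comparison of the controls.

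**Figure D4:**
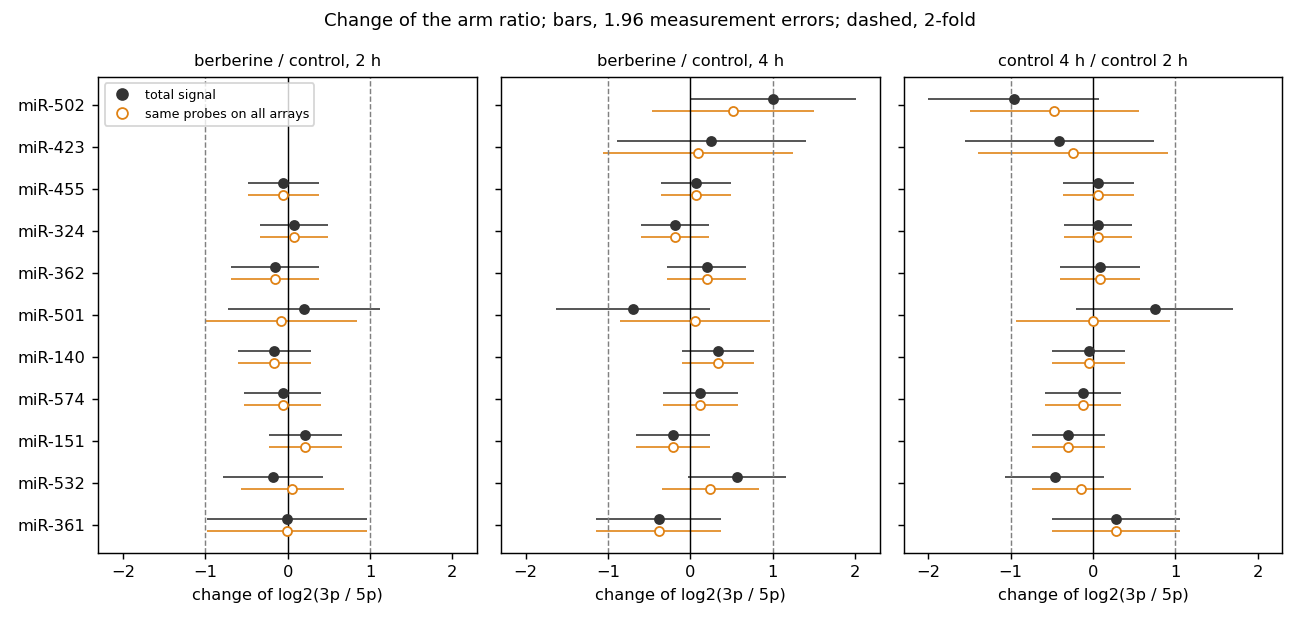
Change of the log2 arm ratio for berberine over control at 2 h and at 4 h and for the control at 4 h over that at 2 h, by hairpin, from the total signal (filled) and from equal probe sums (open), with bars of the 95% measurement range and dashed lines at 2-fold. With the same probes no hairpin lay past 2-fold, and miR-502 at 4 h moved from 1.01 to 0.51.

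The changes of miR-501, miR-502 and miR-532 rested on which probes were summed. Different probes entered the sums of the arrays compared in 2 of 9 hairpins at 2 h, miR-501 and miR-532, and in 4 of 11 at 4 h, miR-423, miR-501, miR-502 and miR-532. Under equal probe sums both changes at 2 h turned in sign, to -0.08 (error 0.47) in miR-501 and 0.06 (error 0.32) in miR-532. The change of miR-502 at 4 h was then 0.51 (error 0.50), that of miR-532 was 0.24 (error 0.30) and that of miR-501 was 0.05 (error 0.47). In the 9 hairpins with both arms on all arrays the largest change was then 1.16-fold with berberine at 2 h, 1.31-fold with berberine at 4 h and 1.23-fold between the controls.

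The probe signals were read one by one. miR-502-3p had total signals of 14.8 and 8.63 at 2 h and 8.85 and 18.6 at 4 h in control and berberine, and miR-502-5p had 6.94 at 2 h in the control and 8.11 and 8.46 at 4 h. The dimmer probe of miR-502-3p read 5.58 (error 1.31) with berberine at 4 h and was summed, and read 3.62 (error 1.52) on the control array at 4 h and was left out. The change of the ratio thus included a probe that was counted on one array and not on the other.

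The same held for the 5p arm of miR-501. miR-501-5p had total signals of 9.44 and 7.42 at 2 h and of 4.68 and 10.705 at 4 h, and miR-501-3p had 6.38 and 5.75, and 5.31 and 7.49. The low value of the control at 4 h summed 1 of 4 probes, whereas 3 were summed with berberine at 4 h. With the same probes the log2 arm ratio of miR-501 was -0.77 and -0.85 at 2 h and -0.77 and -0.72 at 4 h, so that the 5p arm was brighter on all 4 arrays.

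**Figure D5:**
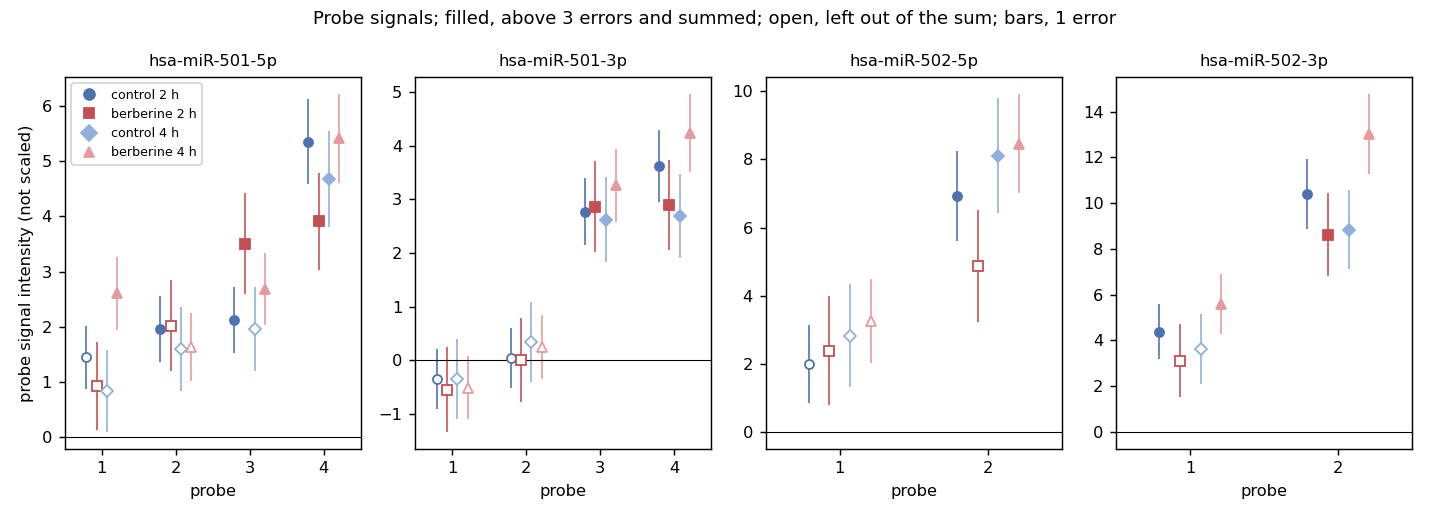
Signal intensity (linear axis, not scaled) of each probe of the miR-501 and miR-502 arms on the 4 arrays, with bars of 1 error, filled where the probe exceeded 3 errors and entered the total signal and open where it did not. The third probe of miR-501-5p, for example, read 1.963 to 3.51 and was left out on the control array at 4 h alone.

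Over both times the arm ratio was tested with limma, with treatment and time in the fit and 1 residual degree of freedom. The 2 times stood in for replicates. The fitted change was thus the average of the changes at 2 h and 4 h, in which changes of opposite sign offset each other. The variance was pooled by limma over all 22 hairpins tested, so each hairpin had the same SE of 0.41. None of the 9 hairpins passed an adjusted p of 0.05 among the 22 hairpins tested, of which 4.55% were called, and none had an unadjusted p below 0.05. The fitted changes ran from -0.25 (SE 0.41) in miR-501 to 0.20 (SE 0.41) in miR-532, each with an adjusted p of 0.996. The 1 hairpin called was miR-21, in which the asterisk arm was higher relative to the plain one with berberine, a call that was absent in 7 of 12 alternatives, among them equal probe sums, treatment alone and the fit without the berberine array at 2 h. With 1 array per condition, a missed threshold does not show that the ratios were equal.

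The levels of the single arms were compared after scaling each array by its 75th percentile over the 197 miRNAs detected on all arrays. At 2 h none of 30 arms was past 2-fold, against 1.02% of 197 human miRNAs, and the log2 ratios of berberine over control ran from -0.76 in miR-769-5p to 0.57 in miR-548d-5p, with a median of -0.02. At 4 h none of 32 arms was past 2-fold, against 0.917% of 218 miRNAs, and the ratios ran from -0.66 in miR-548d-5p to 0.79 in miR-501-5p, with a median of 0.12. In the fit over both times none of 30 arms passed an adjusted p of 0.05 by limma, against 0.508% of the 197 miRNAs tested. miR-501-5p alone had an unadjusted p below 0.05, with a log2 ratio of 0.49 (SE 0.21) and an adjusted p of 0.604, and under equal probe sums 0 arms did.

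At 4 h the 95% measurement range left out 0 in 5 of the 32 arms, against 11.5% of the 218 miRNAs, and at 2 h in none of 30, against 9.14%. They were miR-193a-3p at 0.56, miR-362-3p at 0.38, miR-501-5p at 0.79, miR-502-3p at 0.67 and miR-532-3p at 0.72, all higher with berberine, and the last 4 belong to the Xp11 cluster. Under equal probe sums the range still left out 0 only in miR-362-3p, at 0.38 (error 0.17). Of the 8 Xp11 arms detected on both arrays at 4 h, 7 had a ratio above 0, and miR-502-5p, at -0.34, did not, while 18 of the other 24 arms had a ratio above 0 as well. Their median was 0.28 from the total signals and 0.17 with the same probes, beside 0.11 and 0.09 for the other 24 arms. The control at 4 h, the denominator of these ratios, was below that at 2 h in 7 of the 8 Xp11 arms, with a median of -0.18 (-0.14 with the same probes), and in 20 of the other 24, with a median of -0.08.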

How the data were processed

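The authors deposited, for each array, the output of Feature Extraction 10.7.3.1, with background-subtracted signal intensities per spot, probe and miRNA that were not scaled between arrays. Total signals equalled the sum of the probes above 3 errors within 1% in 902 of 902 cases, and undetected miRNAs were written as 0.1. The median local background was 24 to 28, and the lowest detected signal of an array was 1.79 to 2.52, so dim arms carry large errors. A further table of the authors' own ratios was not used, and 0 columns of per-sample values were left unused. The array design names an older genome build than the RefSeq tables.

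Arm ratios and levels were computed with Python 3.11.15, numpy 2.4.6 and pandas 2.3.3, the figures with matplotlib 3.10.9, and the tests with limma 3.58.1 in R 4.3.3 after a check on simulated data. Groups came from the sample titles. The threshold of 2-fold is that of the study. Hairpins with both arms on all 4 arrays were all named, those with 1 arm on all arrays by their bound, and the rest by counts. miR-423 and miR-502 were named as well, the latter for its change past 2-fold. The hairpins, lists and comparisons were chosen with earlier results of these data known. Alternatives were other probe summaries, normexp with an offset of 50 on the median spot signal, other scalings, filters, thresholds and limma settings. Mature sequences were matched by name, and that of miR-28-5p was not printed.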

Additional observations from a re-analysis of the deposited data

Results flagged for a closer look

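In 8 of the 9 hairpins with both arms on all 4 arrays the arm ratio moved one way with berberine at 2 h and the other way at 4 h. This was not particular to them. Among the other hairpins measured the same way, let-7b, miR-34a, miR-340, miR-425, miR-483 and miR-1225 also had opposite signs. The signs were the same in miR-17, miR-20a, miR-21, miR-30e, miR-192, miR-194 and miR-335. The change at 4 h minus that at 2 h, on the log2 scale, was 0.50 in miR-140, -0.43 in miR-151, -0.26 in miR-324, 0.35 in miR-362, 0.12 in miR-455, -0.89 in miR-501, 0.74 in miR-532 and 0.18 in miR-574. Whether the 2 times differ was not tested, since each time had 1 array per condition, and the 95% measurement range of the difference took in 0 in all 8. Under equal probe sums 7 of the 8 still had opposite signs, and miR-532 did not. In miR-501 both signs turned, so that the difference became 0.13.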

How the results depend on the processing

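The count of hairpins past 2-fold at 4 h, 1 as reported, was 0 with the same probes summed, the brightest probe, the mean of all probes, normexp, both arms required on all 4 arrays, and quantile normalization over the miRNAs detected on all 4 arrays, an alternative chosen after seeing the data. Both arms required on all 4 arrays and that last normalization leave out miR-502, so they give no second estimate of its change. The count was 2 with quantile normalization over all human miRNAs and 2 at 1.5-fold. Quantile normalization over all human miRNAs gave 1 in place of 0 at 2 h and 2 in place of 0 between the controls, and 1.5-fold gave 2 between the controls. Hairpins with a brighter 3p arm numbered 1 on each array with both arms required on all 4, which leaves out the hairpins with one arm, and 3 on the berberine array at 2 h and the control array at 4 h with normexp. The brightest probe and the mean of all probes each gave more. They gave 7 in place of 6 on the control array at 2 h. With berberine they gave 6 in place of 5 at 2 h and 9 in place of 6 at 4 h. The hairpins whose brighter arm was not the same on every array, 2 by sign alone (miR-362 and miR-501), were 1 with the same probes, the brightest probe, the mean of all probes and normexp. The 1 was miR-140 with the brightest probe and miR-362 with the others. Member arms past 2-fold, 0 at both times, were 1 at 2 h and 4 at 4 h with no scaling, 2 and 3 with quantile normalization, 1 and 1 with the brightest probe, and 30 and 1 with the percentile taken over every human miRNA, most of which were undetected. Their median log2 ratio at 2 h was -0.55 with no scaling, 5.08 with that percentile and 0.21 with normexp, and at 4 h 0.52, -0.28 and -0.10. No hairpin or arm of the 57 was called by limma under any alternative, those without one array included, where the count was 0 each time. Of the changes of single hairpins under the alternatives, 122 stayed within their error and 14 moved, all in miR-501, miR-502 and miR-532. Part of the 122 could not move. Both arms required on all 4 arrays left each value as it was, and so did equal probe sums where the probes summed did not differ. The number of arrays and the dim signals limit every value. No paired analysis was possible because each condition has 1 array, so the groups share fewer than 2 replicate numbers, although time as a term of the fit set berberine against the control of the same time.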
